A study of Mus musculus with 4 samples.

Results

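Genes of the fibroblast growth factor (FGF) and Nodal pathways were followed through maps of m6A (N6-methyladenosine, adenosine that carries a methyl group within RNA) made from mouse embryonic stem cells. They were Fgf4, Fgf5, Nodal, Tdgf1, Fgfr1, Lefty1, Lefty2, Spry4 and Dusp6, chosen by name, which are 9 of the 9949 genes with a peak in any library. The lists held 41 peaks for them, of 46417 peaks in all. The study enriched fragmented total RNA with an antibody against m6A and sequenced it (MeRIP-seq) in 4 libraries from embryonic stem cells of the strain C57BL/6N, 2 of wild-type genotype and 2 of genotype Mettl5-/-, referred to as knockout. Mettl5 is the enzyme that methylates an adenosine of 18S ribosomal RNA, and the comparison asked whether the m6A map differed without it. The labels name no other allele, no promoter and no agent for either group, and a described procedure for differentiation is not tied to any of the 4 libraries. The labels do not say whether the knockout is 1 clone or whether libraries of a genotype are separate cultures, so p-values measure only the spread between these libraries, which may be technical.

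FGF4 is secreted by embryonic stem cells and acts on the same cells through FGF receptors and the kinase ERK, a signal that prepares the cells to leave the naive state. Nodal is a ligand of the TGF-beta family that needs the co-receptor Cripto, encoded by Tdgf1, to activate its receptors and the transcription factors Smad2 and Smad3. Both pathways are held in check by inhibitors that they induce themselves: Sprouty 4 and the phosphatase Dusp6 on the FGF side, and the secreted antagonists Lefty1 and Lefty2 on the Nodal side. In messenger RNA, m6A is known to gather around stop codons and in 3' untranslated regions, and to speed the decay of many transcripts that embryonic stem cells lose when they differentiate.

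The libraries held between 10821 and 12699 peaks each, of which 9 to 12 belonged to the 9 genes. Mettl5 itself had no peak analysed, in the wild type or the knockout, and so gave no check of the labels. Of 9 embryonic stem cell markers, 8 had a peak and 6 had one in all 4 libraries, while none of 8 feeder fibroblast markers had any. Peaks were also listed for 2 of 6 primitive endoderm markers (1 in all 4 libraries), 4 of 5 neural markers (2 in all 4) and 4 of 5 markers of primed epiblast and early mesoderm (4 in all 4). No marker had a peak in both libraries of a genotype and in neither of the other. A peak says that a transcript was enriched, not how abundant it was, and read depth and RNA levels were not analysed here.

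The genes differed in how many libraries listed a peak for them. Of the 9 genes, 7 had a peak in all 4 libraries: Fgf4, Tdgf1, Fgfr1, Lefty1, Lefty2, Spry4 and Dusp6. The same was true of 57.1% of the genes with any peak. Lefty2 was counted through peaks at different places, none of them present in all 4 libraries. Nodal was listed in 3 libraries, all but wild type 2, and Fgf5 in wild type 1 alone; among all genes, 13.3% were in exactly 3 libraries and 17% in 1. None of the 9 genes had a peak in both libraries of a genotype and in neither of the other, a pattern found in 1.56% of all genes for the wild type and 2.27% for the knockout. No peak listed for another gene overlapped any of the 9 genes, on either strand.

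**Figure D1:**
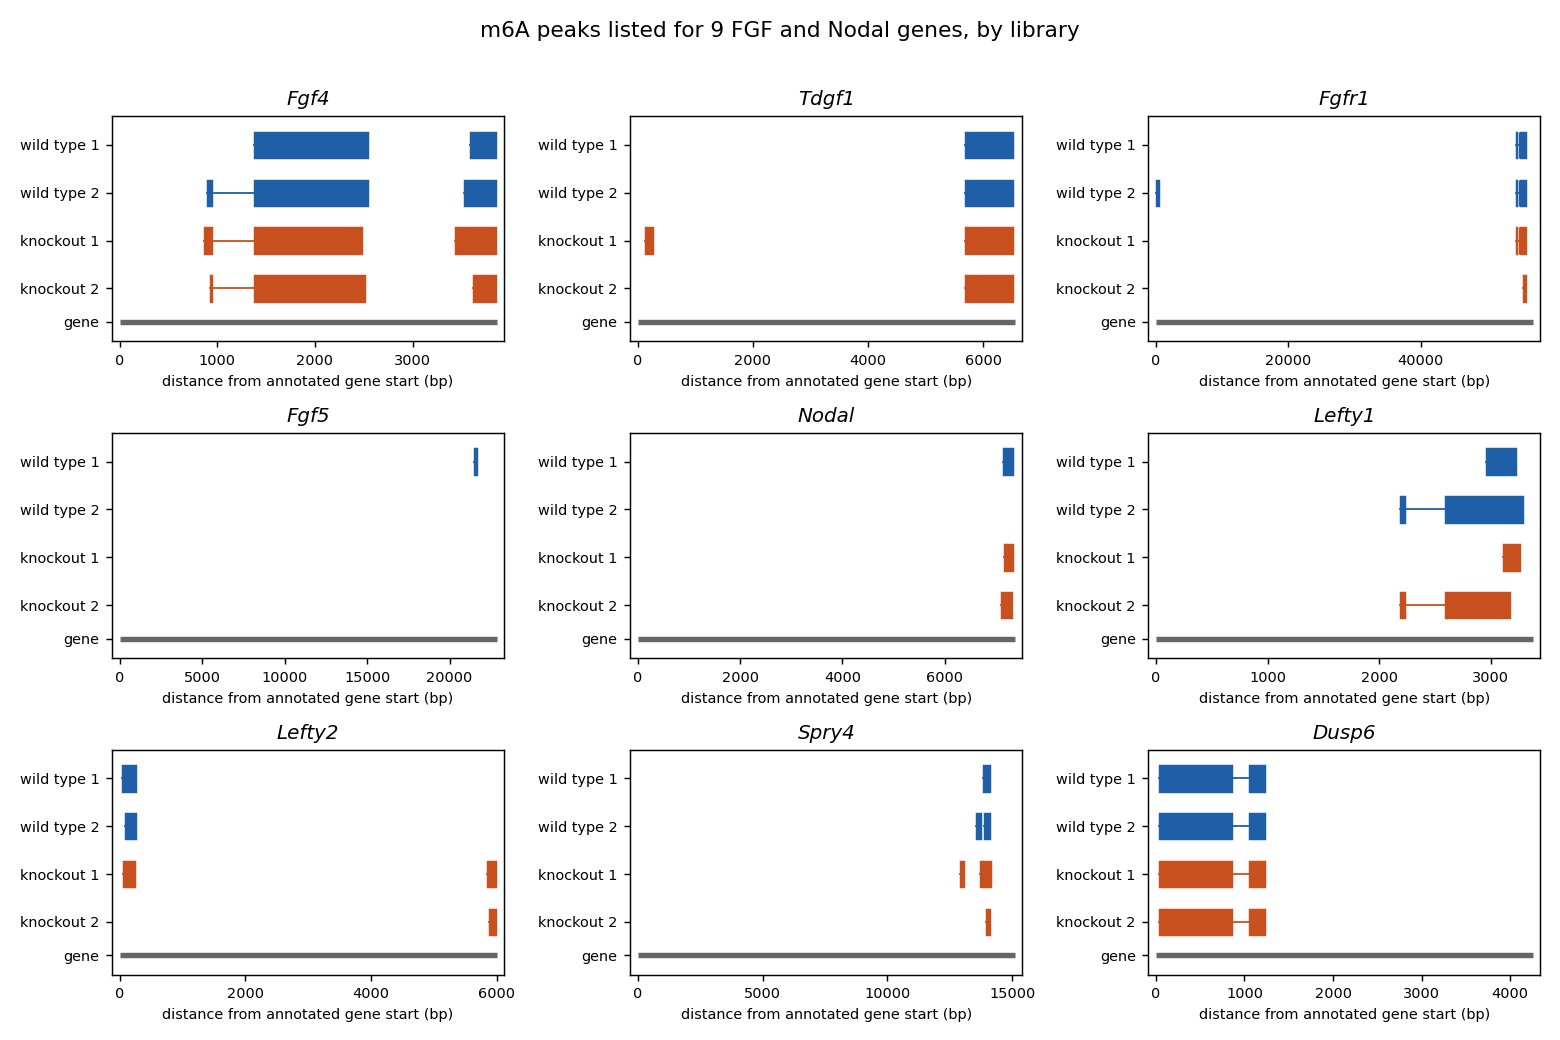
Peaks listed for each of the 9 genes in the 4 libraries, as distance in bp from the annotated start of the gene (RefSeq, GRCm38.p6) in the direction of transcription. Filled bars are the exon blocks of a peak, thin lines join blocks of one peak, and the grey line is the gene; blue is wild type and orange Mettl5 knockout, and each panel has its own scale. Tdgf1 and Dusp6 have bars of the same extent in all 4 libraries, and Lefty2 has a bar at its 3' end in the knockout libraries alone.

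Peaks of different libraries were treated as one region where their exon blocks overlapped by at least 1 bp. The 41 peaks formed 14 regions, of which 7 were present in all 4 libraries, 2 in 3, 1 in 2 and 4 in a single library. Over all genes, 42.5% of regions were present in all 4 libraries and 28.3% in 1. One region, at the 3' end of Lefty2, was present in both knockout libraries and in neither wild-type library, a pattern of 2.51% of all regions. No region showed the reverse, which 2.02% of all regions did. Judged from 3 libraries, knockout-only regions numbered 2 without wild type 1, beside 6.04% of all regions in those 3, and 3 without knockout 2, beside 15.6%. There was 1 wild-type-only region without wild type 1 (7.42% of all regions), without wild type 2 (9.12%) or without knockout 1 (8.42%). With a single library left in a genotype, such a pattern is more common over all regions as well. A missing peak does not show that the mark was missing.

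The strength of a peak was taken as the percentile of its p-value within its own list, and the strongest peak stood for a gene. The scale runs up to 100, and tied peaks share an average, so the strongest of a list can fall below it. Strength ranks evidence, which depends on how much of the RNA was present, so it is not a level of methylation. Among the 7 genes found in all libraries, the median of the mean percentiles was 63.2, beside 66.4 for all genes found in all libraries. Tdgf1 and Fgf4 averaged 98.3 and 96.5, Fgfr1 and Dusp6 76.6 and 63.2, and Spry4, Lefty2 and Lefty1 37.5, 31.7 and 28.1. The first 2 were in the strongest 10% of every list, as were 12.4% of all genes found in all libraries.

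**Figure D2:**
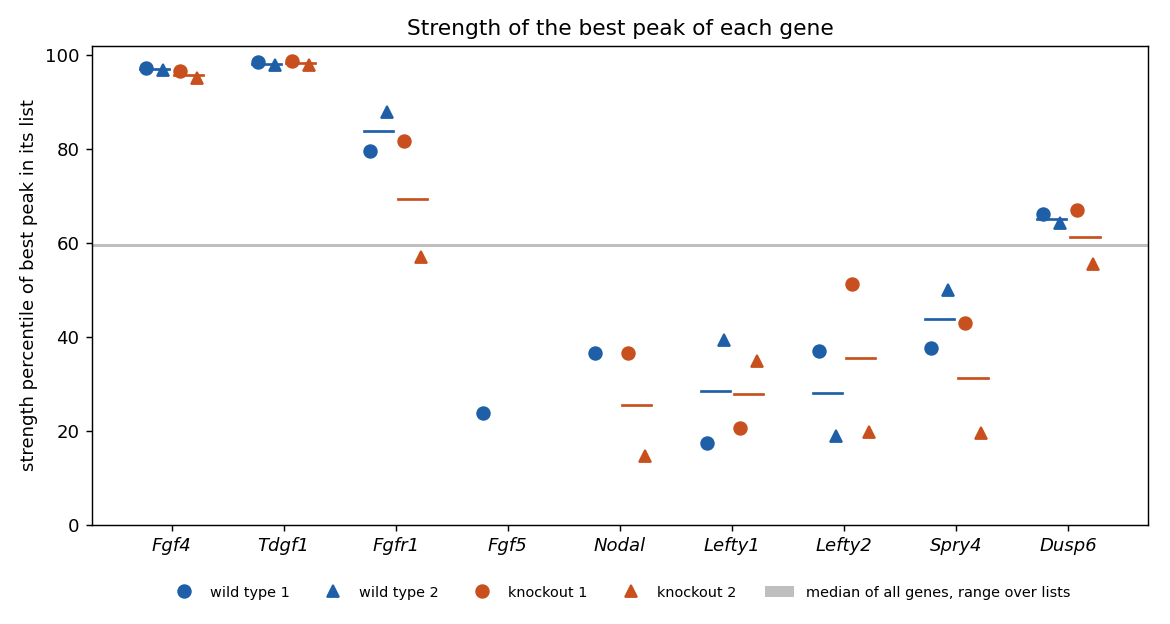
Strength percentile of the best peak of each gene within its list (vertical axis, 100 is the top of the scale), with 1 symbol per library and a short line at the mean of a genotype where both its libraries had a peak. Blue is wild type and orange Mettl5 knockout, and the grey band spans the median of all genes in the 4 lists, 59.1 to 59.9. Fgf4 and Tdgf1 lie above 95 in every library, while the inhibitors Lefty1, Lefty2 and Spry4 lie below the band in every library.

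Fgf4, the FGF ligand made by stem cells, carried a pair of separate peaks in every library, both listed in the 3' untranslated region on the plus strand of chromosome 7 (mm10). The upstream region spanned positions 144862247 to 144863930, and the downstream region positions 144864825 to 144865243. The main exon block of the upstream peak started at position 144862765 in every library and was 1166 bases long in wild type 1 and wild type 2, 1106 in knockout 1 and 1136 in knockout 2. In 3 libraries it reached across an intron into the preceding exon, by 59 bases in wild type 2, 89 in knockout 1 and 29 in knockout 2; in wild type 1 it did not. Its authors' fold enrichment was 409 and 998 in wild type 1 and 2, and 694 and 203 in knockout 1 and 2. The genotypes thus overlapped in fold.

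By percentile of the p-value, the upstream Fgf4 peak stood at 97.4 and 96.8 in wild type 1 and 2 and at 96.6 and 95.1 in knockout 1 and 2. Both knockout values lay just under both wild-type values, a mean of 95.9 ± 1.07 against 97.1 ± 0.432 (SD, n = 2 each). The difference, knockout minus wild type, was -1.19 percentile points, with p = 0.333 in a two-sided exact permutation test, the smallest p that 2 against 2 libraries can give. The difference was -0.436 without knockout 2 and -1.95 without knockout 1. As both knockout values lay under both wild-type values, leaving out a library could not turn its sign. With the mean over the peaks of the gene in place of the strongest, the difference for Fgf4 was 3.52. Fgf4 was the only 1 of the 7 genes whose genotypes did not overlap by p-value with the knockout lower, beside 10.3% of all genes found in all libraries; none was higher, beside 16.5%. Counted by region, this was 1 of the 7 regions found in all libraries, beside 10.1% of all such regions. By fold, Fgf4 overlapped and Lefty2 was the 1 gene of the 7 that was lower without overlap, beside 13.8% of all genes found in all libraries. The Lefty2 values came from different peaks of the gene. The counts moved with the library left out, in these genes and also in all genes, though not to the same extent. Without wild type 1, 4 of 7 genes were lower without overlap, beside 20.1% of all genes in those 3 libraries, and without knockout 1 it was 5 of 7, beside 57.8%. On the higher side were 3 of 7 genes without knockout 2, beside 65.1%, 1 of 7 without wild type 1, beside 27.9%, and 1 of 8 without wild type 2, beside 28.8%.

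The downstream Fgf4 peak lay on the other side. It ended at position 144865243 in all 4 libraries, 2 bp short of the annotated 3' end of the gene, and covered 270 and 329 bases in wild type 1 and 2 and 419 and 240 bases in knockout 1 and 2. Its strength percentile was 65.1 and 69.4 in the wild-type libraries and 80.1 and 70.9 in the knockout libraries, a difference of 8.24 points that was 3.67 without knockout 1 and 12.8 without knockout 2. The authors' fold was 5.61 and 6.88 in wild type 1 and 2, and 16.6 and 11.9 in knockout 1 and 2. As a percentile of the folds in each list, this put the peak at 5.69 and 8.34 in the wild type and at 45.5 and 29.3 in the knockout. Both knockout values exceeded both wild-type values on either scale, as they did in 16.6% of all regions found in 4 libraries by p-value and in 18.4% by fold. By fold, no region of these genes was lower in the knockout without overlap, beside 13.7%. The downstream region was singled out after its values were seen.

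Fgf5, an FGF ligand known as a marker of the primed epiblast, had 1 peak in all. It lay in the 3' untranslated region on chromosome 5, positions 98275661 to 98275869, in wild type 1, with a fold of 12.3 and a strength percentile of 23.7. It was weak beside the median of 59.6 for all genes of that list, and 1164 bp from the annotated end of the gene.

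Nodal, the ligand of its own pathway, had 1 narrow peak in the 3' untranslated region on chromosome 10, between positions 61425069 and 61425308. It covered 210 bases in wild type 1, 180 in knockout 1 and 210 in knockout 2, and ended 30, 30 and 60 bp from the annotated 3' end of the gene. The fold was 13 in wild type 1, 16 in knockout 1 and 8.96 in knockout 2, and the strength percentile 36.5, 36.5 and 14.7. Wild type 1 and knockout 1 had the same percentile. With a peak in only 1 wild-type library, the strength of the genotypes could not be compared.

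Tdgf1, which encodes the Nodal co-receptor Cripto, had the strongest evidence of the 9 genes. In every library a peak of 835 bases in a single block covered positions 110939633 to 110940467 of chromosome 9, on the minus strand, in the 3' untranslated region, starting 25 bp from the annotated 3' end of the gene. Its extent was identical in the 4 lists. Of all regions with exactly 1 peak in each list, 1.72% had the same exon blocks in all 4, and of the 6 such regions in these genes, 2 did, those of Tdgf1 and Dusp6.

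The negative log10 p-value of this Tdgf1 peak, as the authors list it, was 4780 and 6730 in wild type 1 and 2 and 8380 and 7010 in knockout 1 and 2. Its percentile was 98.5 and 98 in the wild type and 98.8 and 97.9 in the knockout, so the genotypes overlapped. The fold was far less extreme, 91.4 and 45.5 in the wild type and 104 and 62.3 in the knockout, or percentiles of 74.4 and 60.5, and 79 and 68.8, within the lists. A further weak peak in the 5' untranslated region, positions 110945890 to 110946039, was listed in knockout 1 alone, with a fold of 1.78 that ranked at percentile 0.276 of its list.

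**Figure D3:**
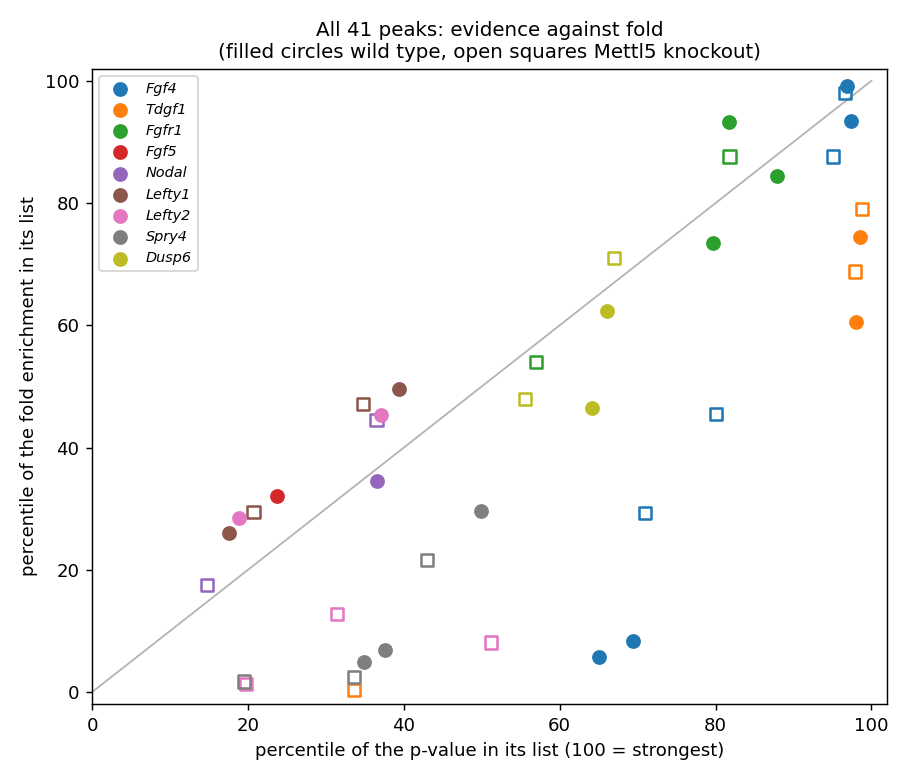
Percentile of the fold enrichment (vertical axis) against percentile of the p-value (horizontal axis) for each of the 41 peaks within its own list, coloured by gene; filled circles are wild-type and open squares Mettl5 knockout libraries, and the grey line marks equal percentiles. The Tdgf1 peaks at the right lie below the line, and the downstream Fgf4 peaks lie far below it, lower in the wild type (5.69 and 8.34) than in the knockout (45.5 and 29.3).

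Fgfr1, an FGF receptor tyrosine kinase, had a peak near its 3' end in all 4 libraries, within positions 25573186 to 25574671 of chromosome 8. In wild type 1, wild type 2 and knockout 1 it ran over 3 exon blocks and 1078 bases. In knockout 2 it was a single block of 420 bases, which lay inside the last block of wild type 1 and knockout 1 and ran 30 bp past that of wild type 2. It was listed in the 3' untranslated region in 3 libraries and as an exon peak with no finer class in wild type 2, where it began 30 bp further upstream than in wild type 1.

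The fold of this peak was 86.5 and 398 in wild type 1 and 2, and 211 and 29.9 in knockout 1 and 2. Its percentile by p-value was 79.7 and 81.7 in the wild type and 81.8 and 57 in the knockout, so knockout 2 stood apart from the other 3. The difference of the means, -11.3 points, was 1.08 without knockout 2 and -23.7 without knockout 1. Wild type 2 had another peak at the start of the gene, in the 5' untranslated region, positions 25518785 to 25519204, with a fold of 199 and a percentile of 87.9. That peak, 26 bp from the annotated start, was the strongest of Fgfr1 in that list and had no counterpart in the others. Of the 4386 regions found in a single library, whose median percentile was 16.2, 4.01% were as strong or stronger. With it, the gene averaged 83.8 ± 5.75 over the wild-type and 69.4 ± 17.6 over the knockout libraries (SD, n = 2 each), a difference of -14.4 points with p = 0.667 in the exact permutation test; without knockout 2 it was -2.02, and without knockout 1 -26.8.

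The inhibitors of the Nodal side, Lefty1 and Lefty2, are closely related genes that lie near each other on chromosome 1, so how reads were shared between them could affect both. Lefty1 had 1 region, positions 180937209 to 180938311, present in all libraries. In wild type 2 and knockout 2 the peak had a pair of exon blocks, 746 and 627 bases in sum, and was listed in the coding sequence. In wild type 1 and knockout 1 it was a single block of 269 and 150 bases inside the same region, listed in the 3' untranslated region. The fold was 10.8 and 25.9 in wild type 1 and 2 and 11.2 and 21.7 in knockout 1 and 2. The percentile was 17.5 and 39.4 in the wild type, and 20.7 and 34.8 in the knockout. Wild type 2 and knockout 2 thus had the wider and stronger peaks, though their shared number does not mark them as paired. The mean difference between genotypes was -0.697 points (exact permutation test, p = 1). It had no steady sign, at -11.6 without wild type 1 and -7.75 without knockout 2, but 10.2 without wild type 2 and 6.36 without knockout 1.

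Lefty2 had a region at either end of its transcript. The one at the 5' end, within positions 180893138 to 180893375 and listed in the coding sequence, was present in wild type 1, wild type 2 and knockout 1, with folds of 18.1, 11.8 and 8.01 and percentiles of 37.1, 18.8 and 31.4. The one at the 3' end, in the 3' untranslated region, was present in knockout 1 at positions 180898955 to 180899103 and in knockout 2 at positions 180898984 to 180899103. Both of these peaks ended 4 bp before the annotated end of the gene. Their folds were low, 7.05 and 2.49, at percentiles of 8.09 and 1.37 of their lists, while the p-values stood at percentiles of 51.2 and 19.7.

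This was the region found in the knockout alone. Its mean percentile of 35.4 was exceeded by 31.4% of the 388 regions found in both knockout libraries and neither wild-type library, whose median was 23.1. Knockout 2 had the 3' peak of Lefty2 without the 5' peak, both wild-type libraries had the 5' peak without the 3' peak, and knockout 1 had both. As a gene, Lefty2 averaged 27.9 ± 12.9 over the wild-type and 35.4 ± 22.3 over the knockout libraries (SD, n = 2 each), a difference of 7.5 points with p = 0.667 in the exact permutation test. It was 16.6 without wild type 1 and 23.2 without knockout 2, but -1.63 without wild type 2 and -8.26 without knockout 1. The fold went the other way: the highest fold of Lefty2 stood at percentiles of 45.3 and 28.4 in the wild type and 12.8 and 1.37 in the knockout, so that both knockout values lay below both wild-type values, with a difference of -29.8 points. These gene values came from different peaks. By p-value, the wild-type values were those of the 5' peak and the knockout values those of the 3' peak. By fold, knockout 2 was represented by its 3' peak and the other libraries by the 5' peak. Neither comparison thus followed a single Lefty2 region through every library.

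On the FGF side, Spry4, which encodes an inhibitor of receptor tyrosine kinase signalling, had its main region in the 3' untranslated region on the minus strand of chromosome 18, within positions 38587197 to 38587797. Wild type 2 listed 2 peaks there, and the other libraries 1 each, of 301 bases in wild type 1, 451 in knockout 1 and 181 in knockout 2. The fold of the strongest was 6.51 and 12.2 in wild type 1 and 2, and 9.61 and 2.68 in knockout 1 and 2. The percentiles were 37.6 and 49.9 in the wild type, and 43 and 19.5 in the knockout. Knockout 2 was lowest, and the difference of -12.5 points (exact permutation test, p = 0.667) was -0.72 without that library and -24.2 without knockout 1; it was -6.31 without wild type 2. Knockout 1 listed a further peak upstream in the same untranslated region, positions 38588276 to 38588426, at a fold of 3.47.

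Dusp6, the phosphatase that inactivates ERK, was the member with no peak in the 3' untranslated region. Its only peak lay at the start of the gene on chromosome 10, positions 99263261 to 99264460, in a pair of exon blocks of 831 and 184 bases, and was listed in the coding sequence. It began 30 bp from the annotated start of the gene and left the last 3029 bp without a peak. Its blocks were identical in the 4 libraries. The fold was 43.4 and 22.3 in wild type 1 and 2, and 59.3 and 22.4 in knockout 1 and 2. The percentile was 66.1 and 64.2 in the wild type and 67 and 55.5 in the knockout, a difference of -3.95 points (exact permutation test, p = 1) that was 1.77 without knockout 2 and -9.67 without knockout 1.

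Knockout 2 had the lowest percentile of the 4 libraries for 5 of the 7 genes found in all of them, and for 55.4% of all such genes. Wild type 1 and wild type 2 were lowest for 1 of the 7 each, beside 20.1% and 19.7% of all such genes. Knockout 1 was lowest for none of the 7, beside 4.73%. Low percentiles of knockout 2 were thus seen over the whole list as well as in these genes. The median difference between genotypes was -1.19 points over the 7 genes, and 0.0872 over all genes found in all libraries, with an SD over those genes of 9.49. In each of the 7 genes the exact permutation test gave a p of 0.333 or more. With 2 against 2 libraries no gene can give a smaller p, so the test cannot decide whether the genotypes differ.

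The peaks of these genes were listed mainly in 3' untranslated regions. Of the 41 peaks, 29 (70.7%) were listed there, 9 (22%) in the coding sequence, 2 in 5' untranslated regions and 1 in an exon with no finer class. Over all peaks, the 3' untranslated region held 38.5% and the coding sequence 35.2%. By gene, 8 of the 9 had at least 1 peak in the 3' untranslated region, beside 48.6% of all genes with a peak. Peaks of 1 gene in different libraries are not independent, and the class could change with the extent of a peak, as in Lefty1 and Fgfr1, so these shares are descriptions. A peak listed in the 3' untranslated region could also reach into upstream exons, as in Fgf4 and Fgfr1.

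Many of these 3' peaks lay close to the annotated end of the gene. Of the 29, 13 (44.8%) ended within 100 bp of the annotated 3' end of the gene: the downstream Fgf4 peaks, and those of Tdgf1, Nodal and Lefty2. The median gap was 150 bp, against 851 bp for 17332 peaks of that class over all genes, of which 11.1% ended within 100 bp. Peaks of Fgfr1, Spry4 and Fgf5 ended 950 bp or more from it. The peaks covered a median of 419 exon bases, beside 359 over all peaks, and 12 (29.3%) had more than 1 exon block, beside 10.8%. All 12 belonged to Fgf4, Fgfr1, Lefty1 and Dusp6. In these shares and medians the same place could be counted once per library. The 13 peaks near a gene end came from 1 region each of Fgf4, Tdgf1, Nodal and Lefty2. Those of Dusp6 were the same blocks in every library, so these values too are descriptions.

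Other genes of the pathways that had a peak were in all 4 libraries about as often as genes with a peak in general. Of 76 further genes of FGF and Nodal signalling, 57 had a peak in some library and 33 in all 4. That is 57.9% of the 57, beside 57.1% of all genes with a peak. The share was 52.8% on the FGF side and 66.7% on the Nodal side. How often genes in general had a peak at all was not counted, so the 57 of 76 stand without a comparison. None of the 76 had a peak in both libraries of a genotype and in neither of the other. On the FGF side, 19 of 45 genes were in all 4 libraries, 17 in 1 to 3 and 9 in none. Among those with no peak analysed were the ligand gene Fgf8, the kinase gene Map2k2 and the inhibitor genes Spry2 and Spred1. On the Nodal side, 14 of 31 were in all 4, 7 in 1 to 3 and 10 in none, among the last Smad2, the receptor gene Acvr2a and the transcription factor gene Foxh1.

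The Nodal genes found in all libraries had a median mean percentile of 81.9, and the FGF genes 53.3. The strongest, with a mean in the top 10% of the lists, were 5 of the 14 of the Nodal list and 1 of the 19 of the FGF list, beside 15.2% of all genes found in all libraries. Skil and Smad7, which encode inhibitors of Smad signalling, averaged 98.4 and 97.1. Inhbb, which encodes a subunit of activin B, and Acvr2b, an activin and Nodal receptor gene, averaged 96.4 and 95.6. Pcsk6, which encodes a protease that processes Nodal, averaged 90.7. On the FGF side this was Ptpn11 at 93.1, the phosphatase gene that links FGF receptors to Ras. The Lefty genes thus stood near the bottom of the Nodal list, where only Gdf1 (9.64) was lower than Lefty1, and Tdgf1 near the top. In wild type 2, Ptpn11, Smad7 and Skil shared a percentile of 99.1, as did Smad7 and Skil in knockout 2. The order among the strongest genes is thus coarse.

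**Figure D4:**
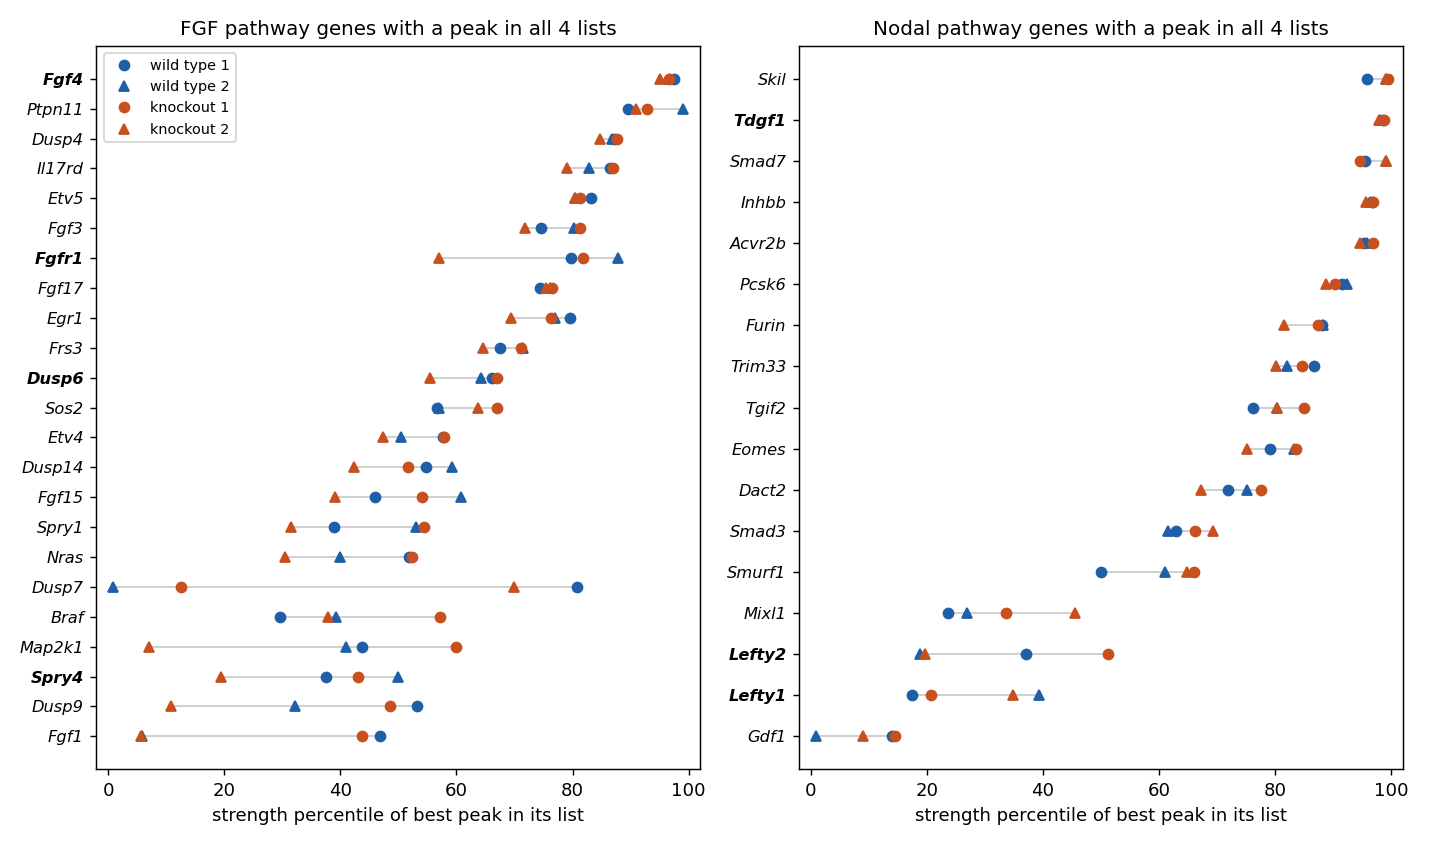
Strength percentile of the best peak within its list (horizontal axis, 100 is the top of the scale) for FGF genes (left) and Nodal genes (right) with a peak in all 4 libraries, ordered by their mean; blue is wild type, orange Mettl5 knockout, and grey lines join the lowest and highest library. Names in bold are members of the set of 9 genes. Fgf4 heads the FGF panel at a mean of 96.5, and Tdgf1 (98.3) comes after Skil (98.4) in the Nodal panel.

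Genotypes that did not overlap were found in 8 of the 33 pathway genes in all libraries. The knockout was higher in 4 (Sos2, Smad3, Smurf1 and Mixl1), beside 16.5% of all genes, and lower in 4 (Dusp14, Egr1, Furin and Pcsk6), beside 10.3%. The differences were between -10 points for Dusp14, a phosphatase gene, and 14.3 points for Mixl1, a transcription factor gene of mesendoderm whose percentiles were 23.7 and 27 in the wild type and 33.7 and 45.6 in the knockout. These genes were picked out by their values and carry no test.

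Among the 33 pathway genes, the one whose percentiles over the 4 libraries were nearest to those of a member was taken from the mean absolute difference. For Fgf4 this was Inhbb, 0.505 points away, and for Tdgf1 it was Skil, 1.41 points away. Dusp6 was nearest to Smad3 (5.08), Fgfr1 to the transcription factor gene Eomes (6.3) and Spry4 to its relative Spry1 (6.97). The distances were larger for Lefty2, nearest to Dusp9 (10.3), and for Lefty1, nearest to Mixl1 (10.6). Over 4 libraries these are descriptions of rank alone.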

How the data were processed

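RNA enriched with an antibody against m6A was sequenced in 2 wild-type and 2 Mettl5 knockout libraries, grouped by the genotype in the labels. The authors deposited 1 peak list per library, with a position, exon blocks, a gene, a transcript class and a p-value for each peak. Per the file headers, a log10 of that p-value and of an adjusted p-value are also listed, entered here as a score because they reach far below the usual range, and a fold enrichment, a ratio to a background that is not named. Per the submitters' processing notes, HISAT2, HOMER and mm10 were used, in roles that are not stated; the peak caller is not given in the sources used here. These are the authors' values and were used only within a list.

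Peaks off the reference chromosomes (3 to 6 a list) were left out. Blocks overlapping by at least 1 bp on either strand were joined. Percentiles rank the log10 p-value, ties averaged. Gene ends came from the RefSeq table of GRCm38.p6, which held all 9 symbols; starts are 1-based. The 9 genes always, and pathway genes by strength, genotype pattern or likeness, were named; the members and lists were chosen with earlier results of these data known. Genes whose genotypes did not overlap, and examples without a peak, were named after their values were seen. The joining was tested on simulated lists. Some pathway genes are not reported here and were left out of the counts. Depth is unknown here. Sequences of the peaks were not analysed here. Python 3.11.15, numpy 2.4.6 and pandas 2.3.3 were used.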

Additional observations from a re-analysis of the deposited data

How the results depend on the processing

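Alternatives were keeping the stronger 50% of every list, shortening all lists to 10821 peaks, an adjusted p-value under 0.05, leaving out each library, other ways to join peaks (reciprocal overlap of 50%, within 100 bp, whole spans, same strand), rank by fold, the mean over the peaks of a gene, and overlap with the reference gene. Of 84 comparisons of a count or share with its reported value, 69 stayed within 1.5 times or the spread between libraries. The stronger 50% of each list left 4 genes in all libraries, 7 regions, 0 knockout-only regions and 20 pathway genes, since it removes the weaker peaks. With lists of equal length 2 genes were lower in the knockout without overlap. A reciprocal overlap of 50% gave 18 regions, of which 5 were in all libraries and 1 was knockout-only. The other ways to join peaks kept 14 regions and 7 in all libraries. Leaving out each library gave 7 to 8 genes and 7 to 8 regions in all libraries, 13 to 14 regions, 0 to 1 wild-type-only and 1 to 3 knockout-only regions, 1 to 5 genes lower and 0 to 3 higher in the knockout, 67.7% to 77.4% of peaks in the 3' untranslated region and 36 pathway genes each time. The sign of the difference in strength held in the 9 alternatives run for Fgfr1 and the 8 run for Spry4 (not in all libraries among the stronger 50%). It also held in the 9 run for the downstream Fgf4 peak (3.67 without knockout 1 to 30.4 by fold). For that peak, singled out because both knockout values exceeded both wild-type values, leaving out a library could not turn the sign. The mean over the peaks of a gene left its 8.24 points unchanged. Those runs were thus no check on it. The sign turned in at least 1 alternative for Fgf4, Tdgf1, Lefty1, Lefty2 and Dusp6, and for the 3' Fgfr1 peak taken alone (1.08 without knockout 2). The cause was not tested. No paired analysis was possible because wild-type titles hold no replicate number and no model was fitted.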
